A study of Mus musculus with 13 samples.

Results

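The 6 CCN genes (Ccn1 to Ccn6) encode secreted matricellular proteins, which sit in the extracellular matrix and modulate signaling rather than building fibers. Their binding by the estrogen receptor ESR1 was examined by ChIP-Seq, in which an antibody to ESR1 recovers bound DNA for sequencing. All 6 genes were taken by name, out of 21938 protein-coding genes, and each was given a window that covered the gene body plus 10 kb on either side. A peak was assigned to a gene when its summit fell in the window, which held 346 of the 686823 peaks in the 12 lists. Peaks that overlapped by at least 1 bp in any of the 12 libraries were merged into regions, and 72 of 228284 regions had a peak in a CCN window.

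The cells were primary fibroblasts of Aromhum mice, taken from muscle of the lower abdomen (LAM). This transgenic line carries the human aromatase gene, whose enzyme converts androgens to estrogens. Every culture, the controls included, came from this genotype, so no wild-type cells were compared. Cultures were held without serum and received vehicle (ethanol and DMSO), estradiol (E2, 10 nM), fulvestrant (100 nM), or both drugs at these doses, with 1 h of E2 or its solvent before fixation and fulvestrant or its solvent added 3 h earlier. Fulvestrant competes with E2 for the receptor and promotes its degradation. There were 3 libraries per treatment, the input was not used here, and the labels give neither animal ages nor the animals behind each culture, so p-values measure the spread between these libraries, which may be technical.

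CCN proteins share an N-terminal module related to IGF-binding proteins, a von Willebrand factor type C module, and a thrombospondin type 1 module, and all but CCN5 end in a cysteine-knot module. CCN1 and CCN2 are classic immediate targets of TGF-β, serum response factor, and YAP/TAZ with TEAD, and CCN2 is a widely used marker of fibrosis. CCN3 often opposes CCN2, CCN4 is a Wnt target, CCN5 is known as an estrogen-induced gene in breast cancer cells, and loss of human CCN6 causes a cartilage disorder.

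A pair of libraries stood apart from the rest. In E2 replicate 1, 59.4% of peaks lay in repeat-masked sequence and the relative depth was 39.1% of the median library. In fulvestrant replicate 2 these values were 27.9% and 75.8%, against 5.57% to 7.79% and 92.0% to 106% in the other 10. The lists held between 34293 and 104571 peaks, with the highest numbers in this same pair. Results that rest on either library are given with and without it, and their part was not tested in any other way. As a check of the cell type, a peak lay within 3 kb of a start site in at least 11 of 12 libraries for 7 of 8 fibroblast markers, Pdgfra, Col1a1, and Col1a2 among them, and for Thy1 in 6. Of the myogenic markers, Myod1, Myog, and Myf5 had a promoter peak in 0 libraries, Pax7 in 2, and Des in 1. The endothelial markers Pecam1, Cdh5, and Kdr had one in 1 to 2 libraries. Of the leukocyte markers, Ptprc and Adgre1 had 0, but Cd68 had a promoter peak in 10 libraries. Peaks record binding and not expression.

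The sequences under the regions on which the comparisons turn are shown first, from the RefSeq copy of GRCm38.p6, the assembly of mm10. An estrogen response element (ERE) was GGTCA and TGACC separated by 3 bases, which reads the same on both strands. It was searched within 100 bp of the summit, with at most 1 of the 10 fixed bases mismatched. The first sequence surrounds the CCN region that reached the best rank percentile in any library, 4.7 kb past the end of Ccn3 (chr15:54758625-54758825, plus strand, intergenic), and capitals mark the closest ERE-like stretch, which has 2 mismatches and starts 87 bases after the summit. The second lies just upstream of Ccn5 (chr2:163820680-163820860, plus strand, ending 1 base before the gene start), with an ERE-like stretch of 2 mismatches in capitals at the summit.
Ccn3 downstream region: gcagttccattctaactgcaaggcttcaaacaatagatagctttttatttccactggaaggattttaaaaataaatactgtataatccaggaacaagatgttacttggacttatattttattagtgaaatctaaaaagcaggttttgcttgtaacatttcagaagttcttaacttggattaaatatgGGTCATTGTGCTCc
Ccn5 promoter region: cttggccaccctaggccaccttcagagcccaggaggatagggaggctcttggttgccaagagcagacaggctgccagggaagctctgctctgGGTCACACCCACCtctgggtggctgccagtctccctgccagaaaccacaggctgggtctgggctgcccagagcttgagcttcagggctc

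An ERE with at most 1 mismatch was held by 1.36% of all merged regions and 3.38% of those present in at least 6 libraries. With 2 mismatches allowed, the shares were 9.06% and 13.7%, so that the looser match is common. It was found in 7 of the 72 CCN regions and in 4 of the 14 CCN regions present in at least 6 libraries. A match is a description of the sequence and not a binding site.

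The upstream sequence of Ccn1 is shown because the gene is a known target of TEAD factors and its promoter carried an ESR1 region in every library. The run covers the 250 bases before the gene start in the GENCODE annotation, on the minus strand (chr3:145649982-145650231). Capitals mark the TEAD hexamer, CATTCC or its reverse complement GGAATG, which the same stretch holds in 11.5% of all 21938 protein-coding genes. Ccn1 had 1 match, starting at position −107 from the gene start. In each library the strongest ESR1 summit of the promoter region lay at positions 267 to 541 or −3280 to −3252. The hexamer was therefore not within 100 bp of any of these summits.
Ccn1 upstream: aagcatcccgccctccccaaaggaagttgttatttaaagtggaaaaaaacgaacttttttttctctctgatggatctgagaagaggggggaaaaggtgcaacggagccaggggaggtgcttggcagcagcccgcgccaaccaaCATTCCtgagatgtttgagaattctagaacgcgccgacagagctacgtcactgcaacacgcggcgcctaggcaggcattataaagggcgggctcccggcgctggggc

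The CCN loci differed in how densely ESR1 peaks lay. Ccn1 (ENSMUSG00000028195.4, chr3:145646976-145649981, minus strand) held 26.1 ± 6.93 peaks per 100 kb of window per library (SD, n = 12), above 98.6% of protein-coding genes. Ccn4 (ENSMUSG00000005124.10, chr15:66891320-66923201, plus strand) held 21.4 ± 7.46, Ccn5 (ENSMUSG00000027656.7, chr2:163820861-163833146, plus strand) 16.5 ± 6.38, and Ccn2 (ENSMUSG00000019997.11, chr10:24595442-24598683, plus strand) 14.3 ± 5.60. Ccn3 (ENSMUSG00000037362.8, chr15:54745702-54754039, plus strand) held 6.47 ± 3.63 and Ccn6 (ENSMUSG00000062074.7, chr10:39150970-39163794, minus strand) 3.81 ± 3.47, near the median of all genes of 3.09. In this order the steps among the first 4 genes were within the spread. Ccn1 was denser than Ccn4 in 7 of 12 libraries, Ccn4 than Ccn5 in 9, and Ccn5 than Ccn2 in 7. Ccn2 was denser than Ccn3 in 12 of 12 and Ccn3 than Ccn6 in 11.

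Of the 72 CCN regions, 34 (47.2%) had a peak in 1 library alone, 14 (19.4%) in at least 6, and 5 (6.94%) in all 12. Over all 228284 regions these shares were 64.2%, 12.8%, and 3.42%. Ccn4, the longest gene, had 31 regions, Ccn5 14, Ccn1 and Ccn2 8 each, Ccn6 6, and Ccn3 5. By position, 22 summits lay within 3 kb of a start site, 22 in introns, 5 in exons, and 23 outside genes. In 33 regions the peaks were found only in libraries given E2, with or without fulvestrant, in 11 only in libraries not given E2, and in 28 in both. This split was not counted over all regions, so it cannot be called particular to the CCN genes. Of the regions with a single library, 19 of 34 belonged to an E2 library, and E2 lists were the longest on average. The regions present in all 12 were the promoters of Ccn1, Ccn2, Ccn4, and Ccn5 and a site 2.6 kb upstream of Ccn4.

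**Figure D1:**
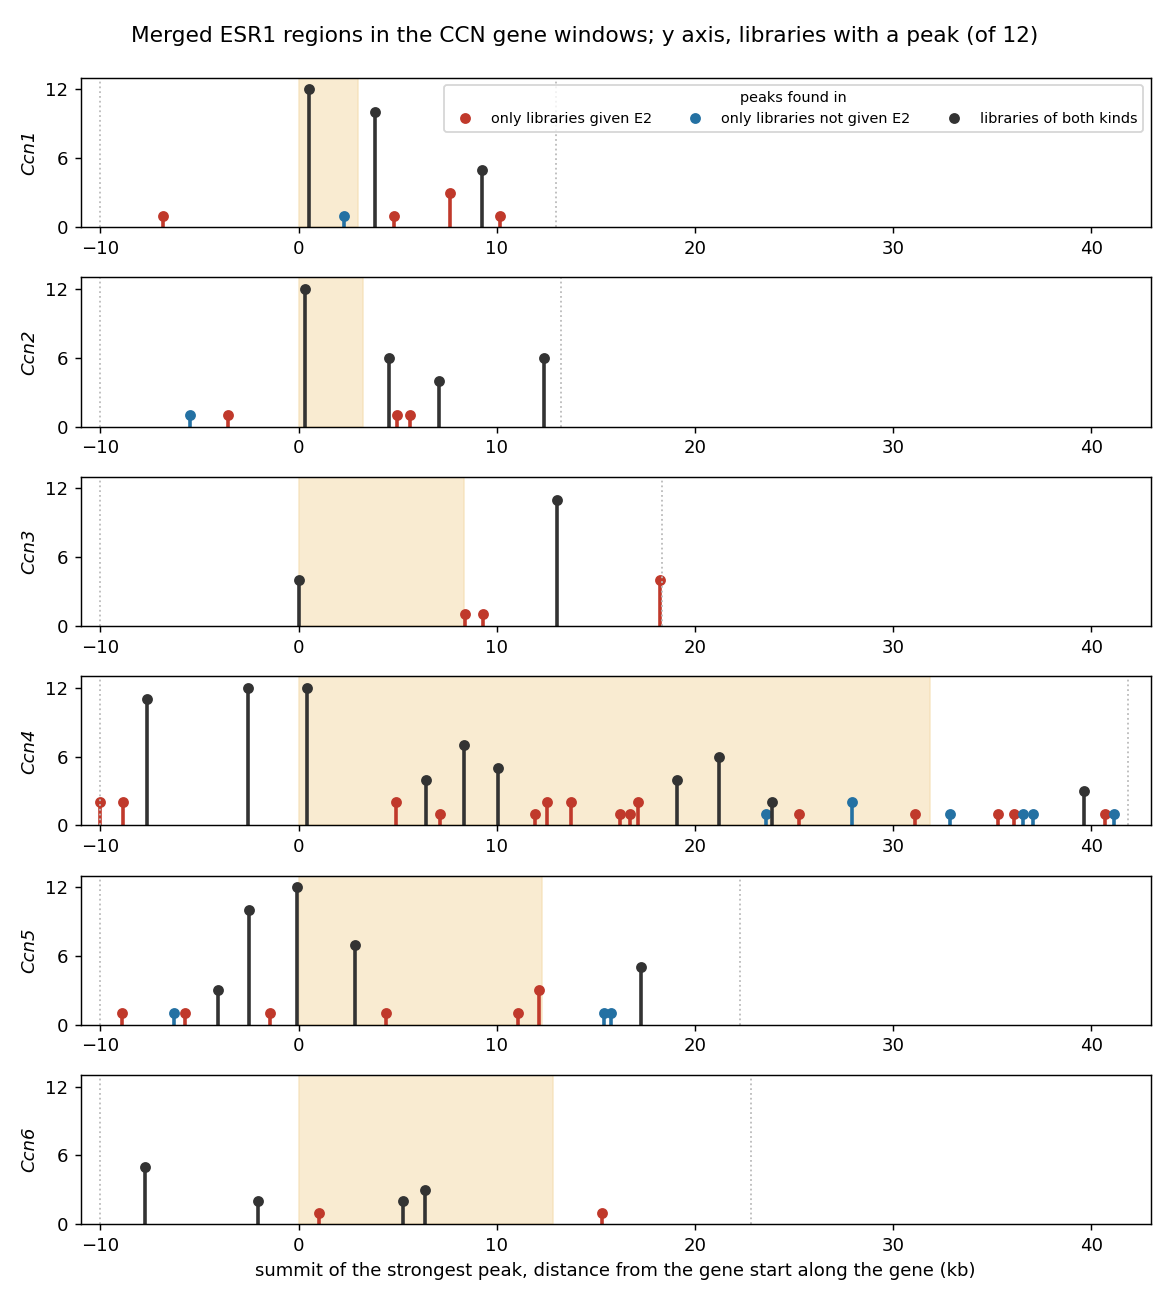
Positions of the 72 merged regions along the 6 CCN genes. The x axis gives the distance of the strongest summit from the gene start in kb, the y axis the number of libraries with a peak (of 12), shading marks the gene body, and dotted lines the ends of the window. Tall black lines near 0 are the promoter regions of Ccn1, Ccn2, Ccn4, and Ccn5, while Ccn3 has its tallest line beyond the gene end.

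Whether E2 and fulvestrant change ESR1 binding at these loci was first asked by counting peaks per window. Ccn1 had 7, 7, and 6 peaks with vehicle, 4, 4, and 6 under E2, 9, 8, and 6 under E2 plus fulvestrant, and 6, 4, and 5 under fulvestrant in replicates 1, 2, and 3. For Ccn2 the counts were 2, 4, and 5, then 3, 5, and 5, then 2, 4, and 3, then 3, 1, and 3 in the same order. In both genes every pair of treatments under test overlapped. Ccn4 ranged most, from 4 peaks in E2 replicate 1 to 17 in E2 replicate 3, and its 4 treatment means lay between 10.3 and 11.7. Ccn5 had 2 to 5 peaks with vehicle, 4 to 9 with E2, 4 to 8 with E2 plus fulvestrant, and 4 to 7 with fulvestrant. Ccn6 had 0 to 4 peaks per library and none in 3 of 12. The treatments of these genes also overlapped.

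Ccn3 was the only CCN gene whose E2 libraries did not overlap with a compared treatment. It had 2, 1, and 1 peaks with vehicle, 3, 3, and 4 under E2, 1, 2, and 2 under E2 plus fulvestrant, and 1, 1, and 1 under fulvestrant. All 3 E2 libraries were therefore above all others. The mean was higher by 1.67 with E2 than with E2 plus fulvestrant and by 2 than with vehicle (exact permutation p = 0.1 in both, the smallest that 3 against 3 libraries allow, n = 3; adjusted over all genes, 1). Such separation in the same direction was found in 4.19% of genes for E2 against E2 plus fulvestrant and in 8.99% for E2 against vehicle, so that 1 gene of 6 does not set the CCN genes apart. Replicate numbers were taken to pair the E2 and E2 plus fulvestrant libraries, although E2 replicate 2 was closer to an E2 plus fulvestrant library of another number. Within numbers the Ccn3 differences were 2, 1, and 2 peaks, and the exact permutation p with the replicate block was 0.25, the smallest it allows. The extra E2 peaks ranked between the 14.9th and 78.9th percentile of their lists and were only in part at the same places. E2 replicates 1 and 3 had peaks at the Ccn3 promoter, as did vehicle replicate 1 and fulvestrant replicate 2. This promoter region held 2 of the 3 peaks of E2 replicate 1. The sequence within 100 bp of its strongest summit, from that library, was 52.7% repeat-masked. Counted as merged regions in place of peaks, E2 replicate 1 was not above vehicle replicate 1, and the separation was lost. E2 replicates 2 and 3 shared a region near the far edge of the window, and each had another peak that no other library had.

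When all 6 libraries that received E2, fulvestrant present or not, were set against the other 6, Ccn3 had 2.50 ± 1.05 against 1.17 ± 0.408 peaks (SD, n = 6 each; exact permutation p = 0.0411, adjusted over all genes 1). An unadjusted p below 0.05 was reached by 2.64% of 19600 genes, 480 of these 517 being higher with E2, and by 0 genes after adjustment. Without any 1 of the 3 E2 libraries the exact permutation p was 0.0541, with repeat-masked peaks left out it was also 0.0541, and with the replicate block it was 0.0648. In the gene body alone the difference was 0.33 peaks (exact permutation p = 0.727), among peaks whose −log10 q reached 10 it was 0.5 peaks (exact permutation p = 0.273), with the 30000 highest-ranked peaks 0.67 (exact permutation p = 0.0606), and with flanks of 50 kb 2.17 (exact permutation p = 0.108). The other 5 genes differed by at most 1.33 peaks, with exact permutation p-values from 0.348 to 0.885 (n = 6 each).

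**Figure D2:**
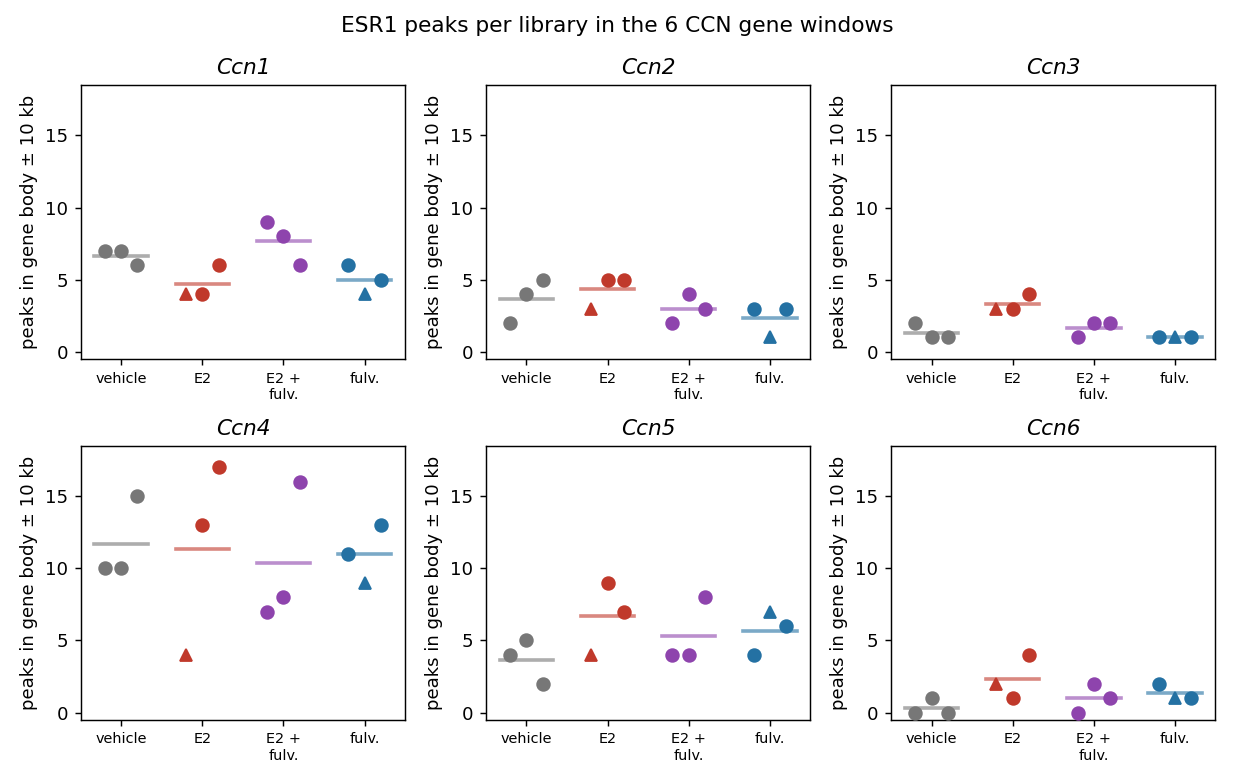
Peaks per library in each CCN gene window (y axis, peaks in the gene body plus 10 kb on either side) by treatment (x axis). Each point is a library in replicate order, lines are means of 3, and triangles mark E2 replicate 1 and fulvestrant replicate 2. Only for Ccn3 do the 3 E2 points, at 3, 3, and 4, lie above every other point.

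Peak counts say nothing about peak strength, so peaks were ranked within each list by their q-value. The rank percentile runs from near 0 for the strongest peak to 100 for the weakest, and a library with no peak in a region was set to 100. Fold enrichment is the authors' ratio of fragments at the summit to local background. The CCN region with the best rank percentile in any library, 0.243 in E2 plus fulvestrant replicate 3, was intergenic, 4.7 kb past the end of Ccn3, with no nearer start site than that of the pseudogene Gm7577, 6.8 kb away. It had a peak in 11 of 12 libraries and none in fulvestrant replicate 2, and its summits fell within 95 bp of each other.

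At this Ccn3 region the peak ranked 3247, 3170, and 1565 in its list with vehicle. With E2 it ranked 41624 in replicate 1 but 191 and 226 in replicates 2 and 3. Under E2 plus fulvestrant it ranked 228, 204, and 161. With fulvestrant alone it ranked 670 and 784 in replicates 1 and 3. Thus 5 of the 6 libraries given E2 held it among the top 0.557% of their peaks and E2 replicate 1 did not.

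Fold and fragments at this region are given for the same libraries. The fold was 5.38, 4.20, and 4.82 with vehicle, 4.06, 18.1, and 15.7 under E2, 9.87, 13.7, and 18.1 under E2 plus fulvestrant, and 8.06 and 6.50 under fulvestrant. Fragments at the summit, recovered from fold and p, were 44, 42, and 45 with vehicle, 15, 157, and 143 under E2, 84, 125, and 142 under E2 plus fulvestrant, and 71 and 64 under fulvestrant. All 3 libraries of E2 plus fulvestrant lay above all vehicle and fulvestrant libraries. The region was described because of its rank in an E2 plus fulvestrant library, and the share of all regions separated in this way was not counted. E2 overlapped with vehicle through replicate 1, where 15 fragments were counted at a relative depth of 39.1%.

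Libraries given E2 held this Ccn3 region at a rank percentile lower by 3.02 on the log2 scale than libraries not given it (exact permutation p = 0.0714, adjusted 0.493 over all regions, n = 6 each), which does not pass. The region was described because of its rank in a library given E2, so the p-values here partly follow from that choice. On log2 fold the difference in favor of E2 was 1.49 (exact permutation p = 0.0173, adjusted 0.485). Without E2 replicate 1 the rank difference was −4.15 (exact permutation p = 0.00433, adjusted 0.0612), and without E2 replicate 1 and fulvestrant replicate 2 it was −3.35 (adjusted p = 0.112, with an exact permutation p of 0.00794, which 5 against 5 libraries cannot go below). In either direction, an exact permutation p below 0.05 was reached by 10.2% of 29321 regions in rank and 8.47% in log2 fold. It was reached by 21.5% without E2 replicate 1, where 4.68% passed after adjustment, and by 18.9% without both libraries.

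**Figure D3:**
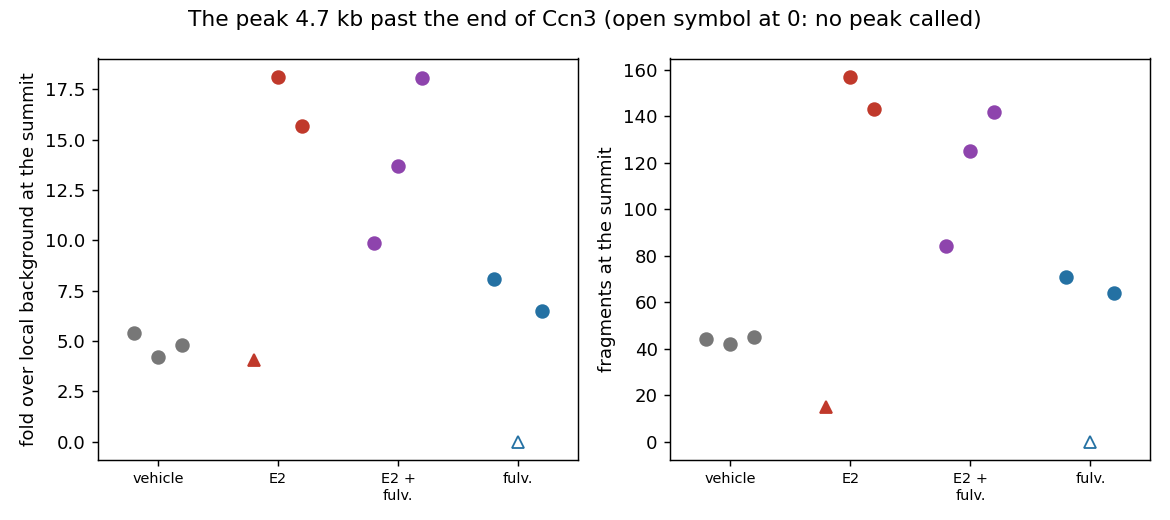
The intergenic peak 4.7 kb past the end of Ccn3, by library. The left panel gives the authors' fold over local background at the summit and the right panel the recovered fragments at the summit, by treatment on the x axis, with points in replicate order, triangles for E2 replicate 1 and fulvestrant replicate 2, and an open symbol at 0 where no peak was called. E2 replicates 2 and 3 and all E2 plus fulvestrant libraries lie at 84 fragments or more, and vehicle at 42 to 45.

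That weaker region near the far edge of the Ccn3 window was present only in libraries given E2. It had a peak in E2 replicates 2 and 3 and in E2 plus fulvestrant replicates 2 and 3, with 24, 33, 14, and 20 fragments, and in 0 of 6 libraries not given E2 (Fisher's exact test p = 0.0606, adjusted 1). No CCN region of 72 passed 0.05 in this test, against 0.162% of all regions. The peaks were weak, ranking between the 22.8th and 67.6th percentile, and a region with no peak cannot be told apart from one below the p-value limit of a list. E2 replicate 1 and E2 plus fulvestrant replicate 1 were the libraries given E2 that had no peak there, so leaving out either one lowers the p-value by construction. It was then found in 4 of 5 libraries given E2, and 1 CCN region passed 0.05, which adds no support. The share of all regions passing in these settings was not counted.

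Ccn5 encodes the CCN protein without the C-terminal module. Its promoter region (chr2:163819933-163821808, summit 109 bases upstream of the nearest start site) was present in all 12 libraries. The rank percentile was 33.0, 22.0, and 7.92 with vehicle, 17.3, 0.970, and 2.83 under E2, 7.83, 1.21, and 1.73 under E2 plus fulvestrant, and 20.3, 4.02, and 39.7 under fulvestrant. Libraries given E2 were mostly stronger, but E2 replicate 1 fell among the libraries not given E2, and fulvestrant replicate 2 among those given it. The geometric mean was 3.03 given E2 and 16.3 without it, a difference of −2.42 on the log2 scale (exact permutation p = 0.0195, adjusted 0.426, n = 6 each). Without E2 replicate 1 and fulvestrant replicate 2 it was −3.33 (exact permutation p = 0.00794, adjusted 0.112). In that setting 18.9% of all regions in at least 6 libraries had an exact permutation p below 0.05, in either direction. A stronger rank with E2 at an unadjusted p below 0.05 was found for 9.26% of the 29321 regions in at least 6 libraries, and for 1 of the 14 CCN regions.

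Fold at the Ccn5 promoter was 2.99, 3.20, and 4.49 with vehicle, 6.54, 10.2, and 9.36 under E2, 4.7, 9.56, and 8.77 under E2 plus fulvestrant, and 3.92, 8.19, and 3.16 under fulvestrant. In fold, unlike in rank, all 3 E2 libraries lay above all vehicle libraries, as they did in 4 of the 14 CCN regions and in 22.3% of all such regions. A second Ccn5 region, 2.5 kb upstream of the gene start and present in 10 libraries, ranked at percentile 6.35 and 8.31 in E2 replicates 2 and 3 and was absent in replicate 1. With vehicle it ranked at 23.2, 23.0, and 17.6. Its difference was −1.36 on the log2 rank scale (exact permutation p = 0.117, adjusted 0.581, n = 6 each), and −1.64 (exact permutation p = 0.0476) without E2 replicate 1 and fulvestrant replicate 2. In that last setting 18.9% of all such regions had an exact permutation p below 0.05.

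At the Ccn1 promoter the rank difference had the opposite sign. Its region (chr3:145647772-145655535) spanned 7.8 kb across the gene start. The strongest summit lay 267 to 541 bases into the gene in 9 libraries and about 3.3 kb upstream in the remaining 3, so that the libraries did not all give the same site. The rank percentile was 3.11, 5.49, and 0.340 with vehicle, 8.99, 3.61, and 2.36 under E2, 9.69, 9.28, and 3.65 under E2 plus fulvestrant, and 3.35, 1.16, and 2.05 under fulvestrant. The geometric mean was 5.41 given E2 and 1.89 without it, weaker by 1.52 on the log2 scale (exact permutation p = 0.0411, adjusted 0.457, n = 6 each). A weaker rank with E2 was found for 0.986% of regions and 1 of 14 CCN regions. A percentile also depends on the number and strength of the other peaks in a list. The −log10 q of the Ccn1 peak itself was 23.8, 15.5, and 42.0 with vehicle and 24.6, 35.2, and 52.3 with E2. It was 12.97, 14.28, and 24.60 with E2 plus fulvestrant and 28.20, 53.21, and 26.76 with fulvestrant. By this value E2 overlapped with vehicle, while all E2 plus fulvestrant libraries lay below all fulvestrant libraries, as in rank. This last pair of treatments was not among those tested, and the share of all regions it separates was not counted. On log2 fold the difference between libraries given E2 and those not given it was 0.07 (exact permutation p = 0.762). The rank difference lost the call without any 1 of vehicle replicate 3, E2 replicate 1, E2 plus fulvestrant replicates 1 and 2, and fulvestrant replicates 2 and 3, with exact permutation p-values from 0.0563 to 0.0887.

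At the Ccn2 promoter (chr10:24594619-24597770), present in all 12 libraries, fold was 5.40, 4.98, and 5.63 with vehicle and 21.0, 9.05, and 10.1 with E2. It was 4.46, 5.54, and 6.76 with E2 plus fulvestrant and 4.29, 10.4, and 5.0 with fulvestrant. In fold E2 was above vehicle and above E2 plus fulvestrant in every library, and the highest value came from E2 replicate 1. Such separation in fold from E2 plus fulvestrant was found in 4 of 14 CCN regions and in 16.7% of all such regions. From vehicle it was found in 4 of 14 and in 22.3%. These counts were added after the values were seen. In rank, E2 (percentile 0.824, 2.58, and 1.70) was stronger than E2 plus fulvestrant (10.9, 5.65, and 4.51) without overlap, but it overlapped with vehicle (4.24, 4.63, and 2.23). The libraries given E2 and those not given it had geometric means of 3.17 and 3.95 (exact permutation p = 0.654, n = 6 each).

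Ccn4 showed the same separation of E2 from E2 plus fulvestrant in a region 2.6 kb upstream of the gene (chr15:66887649-66890625). Its summits were spread over 1932 bp, so that the libraries did not all give the same site. The rank percentile there was 32.5, 15.6, and 13 with vehicle, 8.89, 13.4, and 5.87 under E2, 48.3, 66.3, and 35.9 under E2 plus fulvestrant, and 56.0, 22.5, and 63.5 under fulvestrant. The fragments at the summit were 36, 43, and 64 with E2 and 22, 24, and 28 with E2 plus fulvestrant. At the Ccn4 promoter (chr15:66890848-66895832) E2 ranked at 6.97, 3.40, and 1.58 and E2 plus fulvestrant at 16.6, 10.6, and 7.32, again without overlap. Vehicle, at 3.22, 5.82, and 1.99, overlapped with E2.

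These 3 regions, at Ccn2 and Ccn4, were the CCN regions whose E2 libraries all outranked the E2 plus fulvestrant libraries, 3 of 14 where 8.36% of 29321 regions did so. This count was made after the values had been seen and 3 against 3 libraries cannot give a p below 0.1. Leaving out E2 replicate 1 raised it to 8 of 14, and the share of all regions to 21.4%. For E2 against vehicle the count was 0 of 14, where 8.48% of regions separated, and 5 of 14 against 36.7% without E2 replicate 1. The Ccn3 region 4.7 kb past the gene end, the Ccn5 promoter, and the Ccn5 region 2.5 kb upstream were not among those separated from E2 plus fulvestrant in either count.

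**Figure D4:**
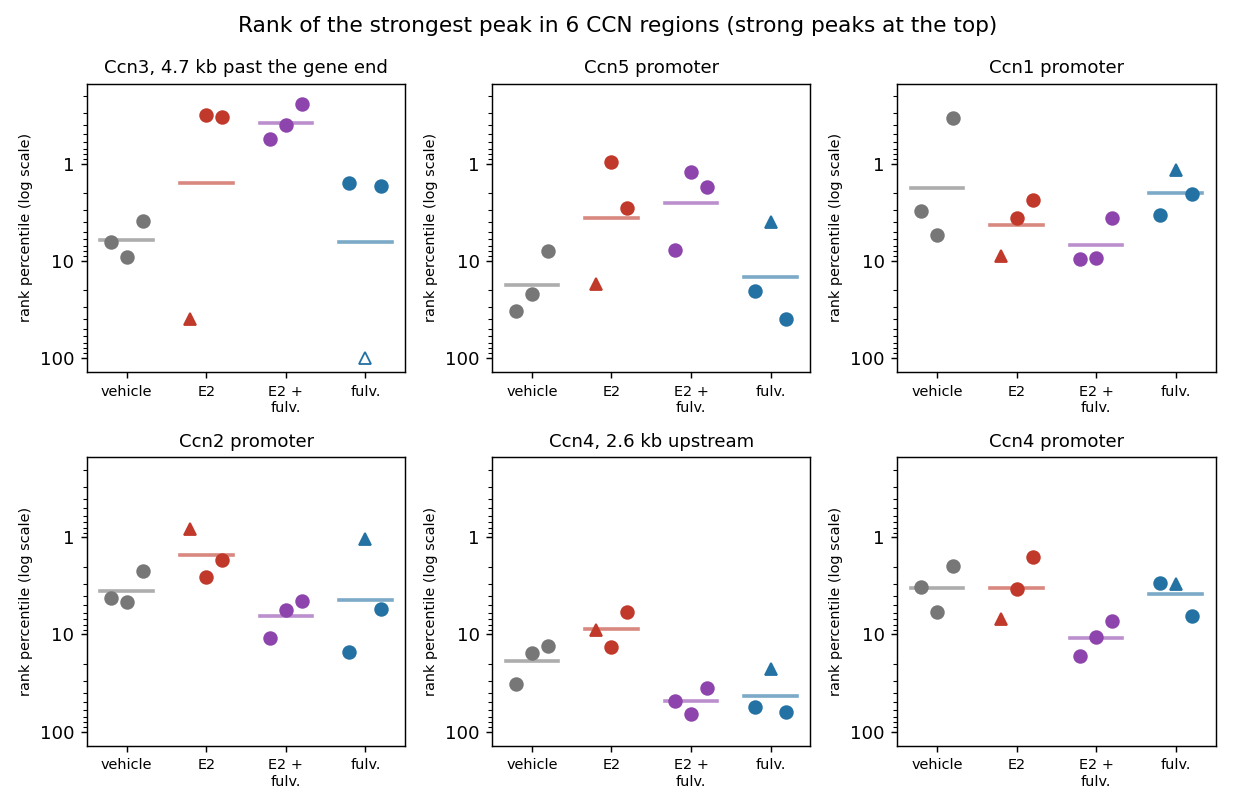
Rank percentile of the strongest peak in 6 CCN regions (y axis, log scale, strong peaks at the top) by treatment (x axis). Points are libraries in replicate order, lines geometric means of 3, triangles E2 replicate 1 and fulvestrant replicate 2, and the open symbol a library with no peak, set to 100. E2 and E2 plus fulvestrant lie together at the Ccn3 region apart from E2 replicate 1, and apart from each other at Ccn2 and both Ccn4 regions.

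Fulvestrant alone was compared with vehicle in the same regions. The fulvestrant libraries ranked below all vehicle libraries in 2 of 14 CCN regions, where 2.70% of all regions did so. Without E2 replicate 1 and fulvestrant replicate 2, this count was 4 of 14 against 5.35%, and 1 region, 4.7 kb past the end of Ccn3, ranked above all vehicle libraries, against 11.9%. The first was 7.7 kb upstream of Ccn4, with percentiles of 13, 14.0, and 21.5 with vehicle and 21.7, 43.9, and 43.9 with fulvestrant. The second was the Ccn5 region 2.5 kb upstream, with 53.2 and 83.6 in fulvestrant replicates 1 and 3 and no peak in replicate 2. No peak count per window separated fulvestrant from vehicle for any CCN gene.

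By presence alone, 1 CCN region was found in all libraries of one treatment and none of another. It lay in an intron of Ccn4 (chr15:66912110-66912748, 21.2 kb into the gene) and was present in all 3 E2 plus fulvestrant libraries and in 0 of 3 E2 libraries, as 0.0732% of all regions were. In rank, 1.82% of regions had E2 libraries all weaker than E2 plus fulvestrant libraries, this one included. It was a weak peak, with 13 fragments in each of the 3 libraries, and it was also found in vehicle replicates 2 and 3 and in fulvestrant replicate 1.

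Ccn6, the least occupied member, had no region in more than 5 libraries. Its most frequent region lay 7.8 kb upstream of the gene and 1.7 kb from the start of the noncoding gene D030034A15Rik, with peaks in E2 replicates 2 and 3, E2 plus fulvestrant replicate 2, and fulvestrant replicates 1 and 3. These ranked between the 46.0th and 71.4th percentile of their lists.

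Of the 14 CCN regions in at least 6 libraries, none held an ERE or an AP-1 site (TGACTCA or TGAGTCA) within 100 bp of the summit, against 3.38% and 5.62% of all such regions. The TEAD hexamer was found in 1 of 14, against 12.2%. With so few regions these shares are descriptions. The CArG box, the element of serum response factor, was found in 1 of 14, against 0.645%. Over all 72 CCN regions the shares were 1.39% for the ERE, 2.78% for AP-1, 8.33% for TEAD, and 5.56% for CArG, against 1.36%, 3.79%, 10.8%, and 0.990% of all regions. Apart from the 1 among the 14, each CCN region with a CArG box had a peak in 1 library alone, an E2 library.

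Genes that act with the CCN proteins were counted in the same way, from a list of receptors, upstream factors, and other matricellular genes. Among 10 receptors, E2 was above E2 plus fulvestrant and above vehicle in 1, Lrp1, an endocytic receptor that binds CCN2. Lrp1 had 23, 23, and 23 peaks with vehicle, 43, 32, and 35 under E2, 26, 25, and 29 under E2 plus fulvestrant, and 20, 45, and 18 under fulvestrant. The syndecan Sdc4, a co-receptor, was higher by 2.67 peaks in libraries given E2 (exact permutation p = 0.0152, n = 6 each). Of 15 upstream factors, Tgfb2, a TGF-β ligand, was higher with E2 (8, 7, and 8 peaks) than with E2 plus fulvestrant (4, 4, and 5) and vehicle (2, 4, and 1), and higher by 3.5 peaks when E2 was given (exact permutation p = 0.0130, n = 6 each). Yap1 was lower with E2 (5, 7, and 7) than with E2 plus fulvestrant (8, 8, and 12), and Tead1 was higher with fulvestrant (27, 27, and 27) than with vehicle (22, 15, and 15). Of 7 other matricellular genes, 0 passed in any comparison, and Thbs1, encoding thrombospondin-1, had 2 to 13 peaks per library. Of all genes, 0.676% were lower with E2 than with E2 plus fulvestrant without overlap and 3.22% higher with fulvestrant than with vehicle, beside the 4.19% and 8.99% given above. For E2 given or not, the test that Sdc4 and Tgfb2 passed, 2.64% of 19600 genes had an exact permutation p below 0.05, and 0 after adjustment.

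The genes whose strongest window peak followed each member most closely over the 12 libraries were listed among 12421 genes with a peak in at least 10 libraries, by Pearson's r of the log2 rank percentile. For Ccn3 these were Gm12695 (r = 0.98) and Stk39 (r = 0.96). They were Bicc1 and Vtcn1 for Ccn5 (both r = 0.95), Ppfia3 (r = 0.92) and Kcnd2 (r = 0.91) for Ccn2, and Mpp1 (r = 0.91) and Zfp13 (r = 0.90) for Ccn1. Morf4l1 (r = 0.88) and Ccdc82 (r = 0.86) were closest to Ccn4, and Rgsl1 (r = 0.82) and Acsm4 (r = 0.81) to Ccn6. The points share libraries and their depths, and the highest of 12421 values is high by selection. Stk39 ranked at percentile 1.95, 1.78, and 2.37 with vehicle, 14.5, 0.0821, and 0.0696 with E2, and 0.220, 0.149, and 0.0891 with E2 plus fulvestrant, with E2 replicate 1 apart as at Ccn3.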

How the data were processed

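ESR1 ChIP-Seq peak lists of 12 libraries were used, and the input was not analysed here. Per the submitters' processing notes and the study's methods, the authors used Trimmomatic 0.39 for trimming, Bowtie2 for alignment to mm10, Picard 2.21.4 for removal of duplicates, and MACS2 for peaks in each library. The deposited lists give the fold enrichment (a ratio) at each summit and −log10 p- and q-values. The integer score the authors deposited beside them, which equals 10 times −log10 p cut to a whole number, was not used. The lists were limited by p, so between 5.64% and 26.1% of their peaks had q above 0.05. The study's methods filter blacklisted peaks and adjust for batch in their own comparison. Whether the deposited lists were filtered is not stated, the labels give no batch, and values here are not adjusted for one. Total reads are unknown. Relative depth was taken from the background that fold and p imply, as were fragments at the summit. In a sample of each library's peaks, the strongest left out, a whole number of fragments matched −log10 p within 0.002 for 99.8% to 100%.

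Summits were assigned to GENCODE vM21 genes with Python 3.11.15, numpy 2.4.6, pandas 2.3.3, scipy 1.17.1, and matplotlib 3.10.9. Peak counts and log2 rank percentiles were compared by 2-sided exact permutation over libraries (20 or 924 arrangements) and presence by Fisher's exact test, with Benjamini-Hochberg adjustment over all genes or regions. Scripts were tested on simulated data. The members, lists, and tests were chosen with earlier results of these data known. Genes named were the 6 members, the gene nearest to a region described, the 2 genes closest to each member in pattern, and listed related genes past a test or first in their list. Replicate numbers come from the sample titles. Deviations of same-numbered E2 and E2 plus fulvestrant libraries from their group means correlated at 0.39, 0.18, and 0.23 over 29321 regions. E2 replicate 2 correlated more, at 0.29, with an E2 plus fulvestrant library of another number, so the pairing is uncertain. The numbers were still taken to pair these treatments, and not E2 or fulvestrant with vehicle. For E2 given or not, the replicate block nevertheless moved labels among all libraries of a number, vehicle and fulvestrant included. Alternatives were other peak filters, windows, and scales, the replicate block, and leaving out libraries. Some sequences are not reported here.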

Additional observations from a re-analysis of the deposited data

Results flagged for a closer look

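Fulvestrant was added both with and without E2, and the difference between these effects was tested for each CCN gene and region by exact permutation. The Ccn1 window had 3 more peaks with E2 plus fulvestrant than with E2 and 1.67 fewer with fulvestrant than with vehicle, a difference of 4.67 peaks (exact permutation p = 0.0130, adjusted 0.937). It was 1 of 6 CCN genes below 0.05, where 3.46% of 19600 genes were and 0 after adjustment. Counted as covered bases in the window, a measure added after the values were seen, the difference was 34.3 bases (exact permutation p = 0.98). The Ccn1 promoter region was one unbroken peak in E2 replicate 2 and up to 7 separate peaks in E2 plus fulvestrant replicate 1.

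The weak region in an intron of Ccn4 had a log2 rank percentile lower by 0.56 with E2 plus fulvestrant than with E2, in which it had no peak, and higher by 0.74 with fulvestrant than with vehicle. The difference between these effects was −1.31 (exact permutation p = 0.0152, adjusted 0.489). It was 1 of 14 CCN regions below 0.05, where 8.30% of 29321 regions were and 0 after adjustment.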

How the results depend on the processing

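The number of CCN genes separated between E2 and E2 plus fulvestrant (1, Ccn3) was 0 with a −log10 q of at least 10, with the 30000 highest-ranked peaks, without repeat-masked peaks, in the gene body alone, and by covered bases, and 1 to 2 when a library was left out. For E2 against vehicle (1) it was 2 with the 30000 highest-ranked peaks, 0 without repeat-masked peaks, in the gene body, and by covered bases, and 1 to 2 when a library was left out. For fulvestrant against vehicle (0) it was 1 by covered bases and 0 to 2 when a library was left out. For libraries given E2 against those not given it (1) it was 0 without repeat-masked peaks, in the gene body, and with the replicate block, and 0 to 1 when a library was left out. The 1 gene was Ccn5, not Ccn3, with a −log10 q of at least 10 (exact permutation p = 0.0065) and with 50 kb flanks (exact permutation p = 0.041), and Ccn4, lower by 4 peaks given E2, with the 30000 highest-ranked peaks (exact permutation p = 0.0043). With the replicate block, exact p-values for Ccn3 were 0.25, 0.25, and 0.0648. The block is reported for E2 against vehicle, and for E2 given or not, although the numbers were not taken to pair vehicle with E2 or fulvestrant. Shares of all genes were not counted in these settings, so a rise to 2 cannot be set against all genes.

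Of the rank differences, 2 of 14 CCN regions passed, where 10.2% of all regions did. For percentiles without the log it was 1 (7.78% of all regions). When a library was left out it was 1 to 3 (7.27% to 21.5%), the 21.5% being without E2 replicate 1. Fisher's test, with 0, gave 0 to 1. Without both libraries that stood apart, chosen after seeing the data, the window counts were 2, 2, and 0 for E2 against E2 plus fulvestrant, E2 against vehicle, and E2 given or not. Shares of all genes were not counted there. Over all regions, those with E2 ranked above vehicle without overlap rose from 8.48% to 36.7%. By rank 4 CCN regions passed (18.9% of all regions), and 1 by Fisher's test, for which the share was not counted. Regions in all libraries of one treatment and none of another, counted in at least 2 of 3, were 4 in place of 0 for E2 but not E2 plus fulvestrant (2.13% of all regions), 5 for E2 but not vehicle (3.97%), and 1 each for vehicle but not E2, fulvestrant but not vehicle, and vehicle but not fulvestrant (0.275%, 1.33%, and 0.799%). Without both libraries they were 2 (1.51%), 5 (3.25%), and 1 (fulvestrant but not vehicle, 0.489%). With the 30000 highest-ranked peaks there was 1 for E2 but not E2 plus fulvestrant, of 175 such regions in all, and 0 for the reverse, of 259. Leaving out a library gave 0 to 2 and 1 to 1 for these, 0 to 5 and 0 to 1 for E2 against vehicle, and 0 to 1 and 0 to 1 for fulvestrant against vehicle. The shares of all regions were 0.207% to 1.51% and 0.0732% to 0.528% for E2 against E2 plus fulvestrant. They were 0.344% to 3.25% and 0.0162% to 0.146% for E2 against vehicle. For fulvestrant against vehicle they were 0.144% to 0.586% and 0.0924% to 0.457%.

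Over all 14 regions, the rank difference turned in 19 of 235 values, in 8 regions, each with an exact permutation p of at least 0.513. Of the differences at the Ccn3 window and the promoters of Ccn2 and Ccn4, fulvestrant minus vehicle at Ccn3 was 0.33 peaks in the gene body alone, the Ccn4 promoter was −0.14 on log2 fold with the sign set so that negative is stronger with E2, and the rank difference at the Ccn2 promoter ranged from −0.71 without fulvestrant replicate 2 to 0.067 without E2 replicate 1 and 0.069 without fulvestrant replicate 1. The cause was not tested.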
